A study of Arabidopsis thaliana with 3 samples.

Results

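Mitochondrion-encoded genes were taken as all 152 rows of the deposited count table whose identifier starts with ATMG, of 32833 rows in all, and were described across 322 wells in which 500 or more genes had a read. These wells are called cells here, and they are 322 of 573 wells in the table. ATMG00020, a ribosomal RNA (rRNA) row, is reported apart from the other 151 rows. The cells were protoplasts of Arabidopsis thaliana Columbia-0 roots at 5 days after germination, from plants that carried pHB53:NLS-3xmCherry, in which the HB53 promoter drives a nuclear triple mCherry. Protoplasts positive for mCherry were sorted, which by the labels are cells of primordia at stages I to IV. The labels name 1 group with 3 replicates and no control, but the files do not say which wells make up which replicate. All wells therefore count as 1 sample, no test was run, and intervals cover counting error only.

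The mitochondrial genome of plants encodes a small part of the organelle: some subunits of respiratory complexes I, III and IV and of ATP synthase, proteins of cytochrome c maturation, some ribosomal proteins, and ribosomal and transfer RNAs. All other subunits are encoded in the nucleus and imported, so each respiratory complex is assembled from products of both genomes. Transcripts of the plant mitochondrial genome are made by phage-type RNA polymerases and are extensively edited from C to U. In Arabidopsis a large copy of the mitochondrial genome also lies in chromosome 2, which leaves many mitochondrial genes with a nuclear look-alike. The reference used here names ATMG identifiers only through those chromosome 2 copies. It pairs 53 of the 152 rows in this way, 24 of them with a description other than unknown. All other rows are given by identifier.

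The cells had a median of 245742 reads (8315 to 1459543) and 4009 genes with a read (506 to 9516). They came from 6 plates on 3 flow cells, with 102, 96 and 124 cells on flow cells 1, 2 and 3, which are treated as technical batches. Of the primordium markers, IAA28 had a read in 58.4% of cells and LRP1 in 55.9%, while HB53, whose promoter drives the sorted reporter, had one in 11.5%. RBCS1A, a marker of green tissue, had a read in 7.76% of cells. Wells with more than 1 cell could not be recognised.

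Sequences are shown first for one pair in which the chromosome 2 copy took nearly all reads and for one pair in which the mitochondrial row took most. They come from RefSeq's TAIR10.1 assembly, are written 5′ to 3′ in the sense of the mitochondrial gene, and capitals mark bases that differ within a pair. The first pair is the start of atp1, the alpha subunit of ATP synthase, at MT:68532-68621 on the minus strand, and of its copy in AT2G07698 at chr2:3362505-3362594 on the plus strand. The second pair is a stretch of rpl2, a protein of the large ribosomal subunit, at MT:222047-222136 on the minus strand, and of its copy in AT2G07715 at chr2:3411654-3411743 on the plus strand. This stretch was chosen for having the most differences, so it is not typical of the pair.
atp1, mitochondrion: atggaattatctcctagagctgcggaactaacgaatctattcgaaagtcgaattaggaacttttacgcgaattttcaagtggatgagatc
AT2G07698, chromosome 2: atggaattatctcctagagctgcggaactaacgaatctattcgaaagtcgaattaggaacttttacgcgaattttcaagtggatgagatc
rpl2, mitochondrion: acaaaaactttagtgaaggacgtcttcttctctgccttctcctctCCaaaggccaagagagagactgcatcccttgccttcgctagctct
AT2G07715, chromosome 2: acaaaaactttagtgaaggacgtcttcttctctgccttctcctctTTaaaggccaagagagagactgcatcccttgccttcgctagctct
The atp1 pair has 0 differences over the 1524 aligned bases of the mitochondrial gene, and the rpl2 pair has 4 over 1982 aligned bases. The mitochondrial rpl2 gene is 2701 bases long, so part of it lies outside this alignment. The assignment of reads within such pairs is uncertain, since the treatment of reads that match both places is not stated in the labels or files.

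A total of 120 of the 152 rows had a read in at least 1 cell, and 32 had none, 30 of them in no well at all. A count of 0 in 322 cells allows a share of cells with a read of up to 0.932% by a limit of 3 counts, or 1.14% by the exact interval. It sets no limit on the share of cells that hold the transcript. Of the rows with a read, 20 were read in at least 50% of cells, 45 in 10 to 50%, and 55 in under 10%. Reads were found in 5 or more cells for 92 rows, and in 1 to 4 cells for 28. A cell held reads of a median of 26 mitochondrion-encoded rows (4 to 54).

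Together the 152 rows took 2731474 of 107091622 reads, 2.55%. This share was made almost entirely of 3 rows. ATMG00020, the rRNA row reported apart, had 2161292 reads and ranked 2 among all genes of the table. ATMG00030 had 231691 reads and ranked 23. ATMG01390, which was also listed as rRNA but is not named by the reference, had 192450 and ranked 31. These 3 rows carried 94.7% of the reads of mitochondrion-encoded rows, and the other 149 rows shared 146041 reads. All 3 were read in every one of the 322 cells (exact 95% interval 98.9% to 100%), which held for only 5 genes of the whole table.

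ATMG00020 had between 6 and 48140 reads in a cell, with a median of 4483. As a share of the cell's reads it ran from 0.00194% to 44.0%, with a median of 1.58% (exact 95% interval of the median 1.43% to 1.76%). The median was 2.34% on flow cell 1, 1.21% on flow cell 2 and 1.32% on flow cell 3. Most cells were close to this middle, with 10% of cells below 0.758% and 10% above 5.73%, and a few lay far above it. In 35 cells ATMG00020 was 5% or more of the reads, in 16 cells 10% or more, and in 6 cells 20% or more. The 16 cells had a median of 1060.5 genes with a read, so they sat at the poor end of the cells, and 9 of them were on flow cell 1.

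ATMG00030 made a median of 0.160% of a cell's reads (0.00613% to 19.8%). ATMG01390 made a median of 0.137% (0.000645% to 6.43%). The other 149 rows summed to a median of 0.0994% (0.000323% to 3.10%), with 0.160%, 0.0846% and 0.0868% on flow cells 1, 2 and 3. Flow cell 1 was thus the highest for both ATMG00020 and the remaining rows. All rows except ATMG00020 summed to a median of 0.407% of reads (0.366% to 0.451% as its interval). This sum includes ATMG01390 and is therefore not free of rows listed as rRNA. Chloroplast-encoded rows, 133 in number, made a median of 0.420%.

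**Figure D1:**
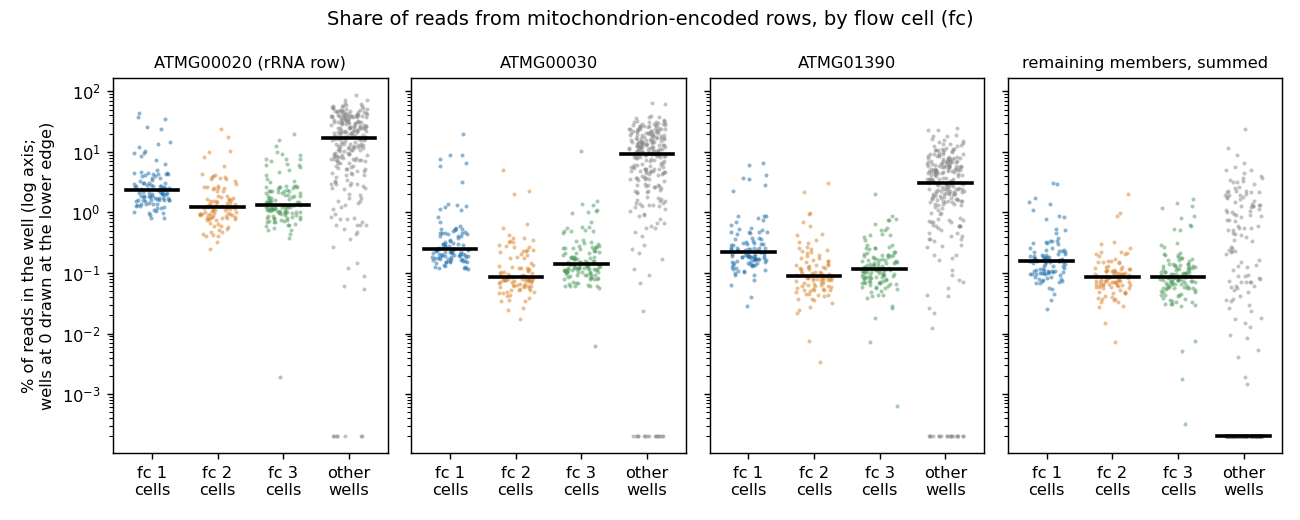
Share of a well's reads (log axis) from ATMG00020, ATMG00030, ATMG01390 and the other 149 mitochondrion-encoded rows summed, for cells on 3 flow cells (fc) and for the 251 wells with under 500 genes; each point is a well and each black line a median. ATMG00020 had medians of 2.34%, 1.21% and 1.32% in cells against 16.9% in the other wells. The other 149 rows had a median of 0 in the other wells. Summed over wells, however, they made 1.19% of reads there and 0.136% in cells.

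The most widely read of the remaining rows was ATMG01360, with a read in 304 of 322 cells (94.4%, exact 95% interval 91.3% to 96.7%). It had 0 to 835 reads in a cell, with a median of 33, and was read in 96.1%, 93.8% and 93.5% of cells on flow cells 1, 2 and 3. ATMG00090 followed at 89.8% of cells, with a median of 32 reads and at most 830. ATMG01120 was read in 89.4% of cells, with a median of 16 reads and at most 491. The intervals of ATMG00090 (85.9% to 92.8%) and ATMG01120 (85.6% to 92.6%) overlap almost fully, so their order is within counting error. ATMG00080 was read in 85.1% of cells, ATMG00660 in 84.8% and ATMG00070 in 82.6%, again with overlapping intervals. ATMG00160 and ATMG00516 were both read in 80.4%.

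ATMG01360 and ATMG00090 gave 16.5% and 15.3% of the reads of the 149 rows, so a pair of rows held a large part of what was left after the first 3. Gene lengths of these identifiers were not available here, so neither reads nor shares of cells rank the levels of different genes. Of the 92 rows read in 5 or more cells, 81 were read in a larger share of cells on flow cell 1 than on either other flow cell. Median reads per cell were 408532, 440181 and 132330 on flow cells 1, 2 and 3, so the flow cell with the most reads was not the one with the highest shares. When cells were thinned to 115851 reads each, which left 257 cells, 71 of the 92 were still highest on flow cell 1. No such count over all genes was set beside these, so they do not show a trait particular to the mitochondrial rows. In thinned cells ATMG01360 was read in 92.2% of cells and ATMG01170 in 45.9%, against 55.9% unthinned.

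**Figure D2:**
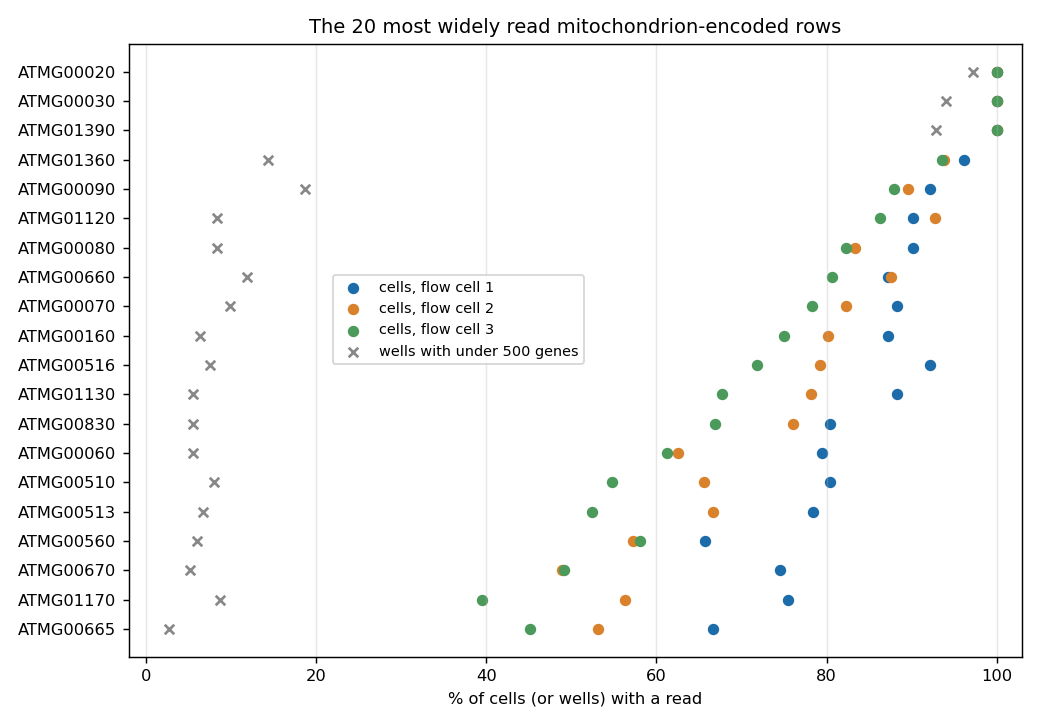
Share of cells with a read, by flow cell (dots), and share of the wells with under 500 genes (crosses), for the 20 mitochondrion-encoded rows read in at least 50% of cells. The first 3 rows are at 100% of cells and at 92.8% or more of the other wells, and all later rows fall to 18.7% or less in the other wells.

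Rows that the reference describes were read in fewer cells. The widest was ATMG00560, described as a nucleic acid-binding protein of the OB-fold type and lying at rpl2, with 2528 reads in 60.2% of cells. Among complex I subunits, which take electrons from NADH, ATMG01275 (NADH dehydrogenase 1A) had 543 reads in 27.3% of cells, and ATMG01320 (NADH dehydrogenase 2B) had 177 in 12.1%. ATMG01275 was read in 36.3% and 33.3% of cells on flow cells 1 and 2 and in 15.3% on flow cell 3. For cytochrome c maturation, ATMG00180 had 198 reads in 20.8% of cells and ATMG00960 had 337 in 19.9%. In complex IV, which passes electrons to oxygen, ATMG00730 (cytochrome c oxidase subunit 3) had 10 reads in 10 cells. These are only rows named through a chromosome 2 copy. Widely read rows without a description may hold other subunits, so these values do not describe a complex as a whole.

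ATP synthase makes ATP from the proton gradient. Of the rows described with it, ATMG01090 (ATP synthase 9), named here after its values were seen, was the widest, with 1072 reads in 35.7% of cells. It was read in 44.1%, 38.5% and 26.6% of cells on flow cells 1, 2 and 3. Its description is uncertain: its chromosome 2 partner aligned over 59.3% of its length, to no annotated mitochondrial gene. The partner of ATMG01080, given below as subunit 9, aligned at atp9. ATMG00480, F0 subunit 8 of the enzyme, had 67 reads in 15.2% of cells. ATMG01190, the alpha subunit, had 38 reads in 10.6%, and ATMG01080, F0 subunit 9, had 18 reads in 4.04%. ATMG00980, a ribosomal protein of the small subunit, had 78 reads in 10.2% of cells. None of the described rows given here had more than 44 reads in 1 cell except ATMG01090, with up to 74, and ATMG00560, with up to 181.

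Several of these genes were counted mainly at chromosome 2. All 55 chromosome 2 loci that the reference pairs with an ATMG identifier aligned to its mitochondrial genome at 99% identity or more, and 28 at 100%. Of these loci, 46 are in the count table, facing 45 mitochondrial rows. Over the 45 pairs the mitochondrial rows had 6866 reads and the chromosome 2 loci 20021. The chromosome 2 side had more reads in 25 pairs and the mitochondrial side in 19, and 1 pair was equal. Reads were not scaled to length, and a chromosome 2 locus can be longer than the mitochondrial gene it carries. AT2G07698 spans 2665 bases and atp1 1524, so the sides of a pair are not always like for like.

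AT2G07698, the copy that carries atp1, had 11739 reads in 304 cells, against 38 reads in 34 cells at ATMG01190. AT2G07727, the copy of the cytochrome b gene of complex III, had 862 reads against 8 at ATMG00220. AT2G07687, the copy for cytochrome c oxidase subunit 3, had 542 against 10 at ATMG00730. The reverse was seen elsewhere: AT2G07715 had 1030 reads against 2528 at ATMG00560, and AT2G07785 had 8 against 543 at ATMG01275. AT2G07777, which aligned only in part, had 12 against 1072 at ATMG01090. AT2G07689 had 1 read against 177 at ATMG01320. The split within a pair thus ran from nearly all reads at chromosome 2 to nearly all at the mitochondrial row.

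**Figure D3:**
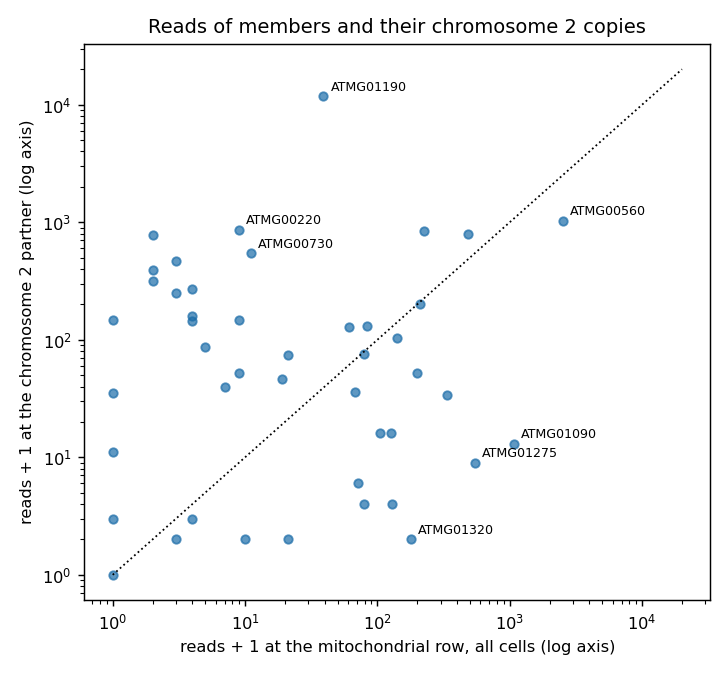
Reads plus 1 over the 322 cells at 45 mitochondrion-encoded rows (log axis) against reads plus 1 at their chromosome 2 copies (log axis); each point is a pair and the dotted line marks equal reads. ATMG01190, at 38 against 11739 reads, had the most reads at its chromosome 2 copy, and ATMG01320, ATMG01275 and ATMG01090 lie far below it.

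Across cells AT2G07698 had correlations near those of ATMG01360 and ATMG00090, and above those of the nuclear subunits of the same enzyme examined. Per nuclear read, its Spearman correlation with the sum of the 149 rows was 0.47, 0.34 and 0.51 on flow cells 1, 2 and 3 (102, 96 and 124 cells). ATMG01360 had 0.39, 0.44 and 0.51 with the sum of the others, and ATMG00090 had 0.52, 0.31 and 0.53. The 3 rows with most reads were mostly higher. ATMG00020 had 0.67, 0.59 and 0.54, ATMG00030 0.70, 0.60 and 0.61, and ATMG01390 0.63, 0.48 and 0.49. The 9 nuclear genes of ATP synthase examined, whose products join the same complex, ran from -0.26 to 0.16. AT2G07715 had 0.18, 0.13 and 0.08, and AT2G07727 had 0.09, 0.11 and 0.15. These are descriptions: the quantities of a cell share its library and depth, and the copies differ in how many cells have a read.

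Correlations among the mitochondrial rows across cells were mostly positive. ATMG00020 and ATMG00030 had Spearman correlations of their read shares of 0.95, 0.94 and 0.92 on the 3 flow cells, and ATMG00020 and ATMG01390 had 0.78, 0.79 and 0.81. ATMG00020 and the sum of the 149 rows had 0.65, 0.57 and 0.52, and ATMG00020 and the chloroplast-encoded rows had 0.58, 0.62 and 0.53. For the 17 other rows read in at least 50% of cells, reads were divided by the nuclear reads of the cell. Their median correlation over 136 pairs was 0.29, 0.22 and 0.24. The correlation was positive in 136, 132 and 136 pairs. No such values for other genes were set beside these, and the rows of a cell share a divisor. They therefore do not show a trait particular to the mitochondrial rows.

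The nuclear partners of these complexes were widely read. The 13 nuclear complex I genes examined had reads in 35.1% to 68.6% of cells, the 9 of complex III in 22.7% to 79.2%, and the 6 of complex IV and cytochrome c in 40.1% to 82.3%. The 9 nuclear ATP synthase genes had reads in 61.8% to 85.1%, with ATPQ, a subunit of the stalk region, the widest, and ATP3, the gamma subunit, in 73.0%. The 5 genes of complex II, all nuclear here, had reads in 37.9% to 76.1%, led by SDH1-1, a flavoprotein subunit. Of the alternative oxidases, which pass electrons to oxygen without pumping protons, AOX1A had a read in 66.8% of cells and AOX2 in 4.66%, AOX1C in 1.55% and AOX1D in 0.311%. HSP60, a mitochondrial chaperonin, had a read in 46.6%, and MGP3 (AT1G68990), a phage-type RNA polymerase of mitochondria, in 14.9%.

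The wells that were not counted as cells held the same 3 rows. These 251 wells had a median of 3922 reads and 52 genes with a read, and 42.2% of their 2568491 reads were of mitochondrion-encoded rows. ATMG00020 was read in 97.2% of them, ATMG00030 in 94.0% and ATMG01390 in 92.8%. They ranked 2, 3 and 4 among all genes by that share, next to the nuclear rRNA rows AT3G41768 at 99.6% and AT2G01010 at 92.0%. Of 12 genes read in at least 50% of these wells, 3 were mitochondrion-encoded. By contrast ATMG01360 was read in 14.3% of them and ATMG00090 in 18.7%. A read of ATMG00020, ATMG00030 or ATMG01390 thus did not tell a cell from a well with few genes. ATMG01360 was read in fewer of these wells, but they were set apart by having few genes with a read. They also had far fewer reads each, with a median of 3922 against 245742 in cells. Summed over wells, ATMG01360 took 3535 of 2568491 reads there and 24109 of 107091622 in cells, a larger share in the wells with few genes. Its lower share of wells therefore does not show that its reads mark cells.

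The proportions among these rows differed between the 2 kinds of well. Cells had a median of 9.90 ATMG00020 reads per ATMG00030 read, with quartiles of 8.36 and 11.8, and medians of 8.60, 12.97 and 9.71 on flow cells 1, 2 and 3. In the 234 other wells with reads of both, the median was 1.76, with quartiles of 0.918 and 3.64, and 2.06, 2.08 and 1.42 by flow cell. The ratio was under 5 in 2.80% of cells and in 82.5% of those wells. Per ATMG01390 read, cells had a median of 11.4 ATMG00020 reads and other wells 4.94. Against the other 149 rows the order turned: cells had a median of 15.1 ATMG00020 reads per read of these rows, and the 113 other wells with reads of both had 41.8. What the material in these wells is was not tested.

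**Figure D4:**
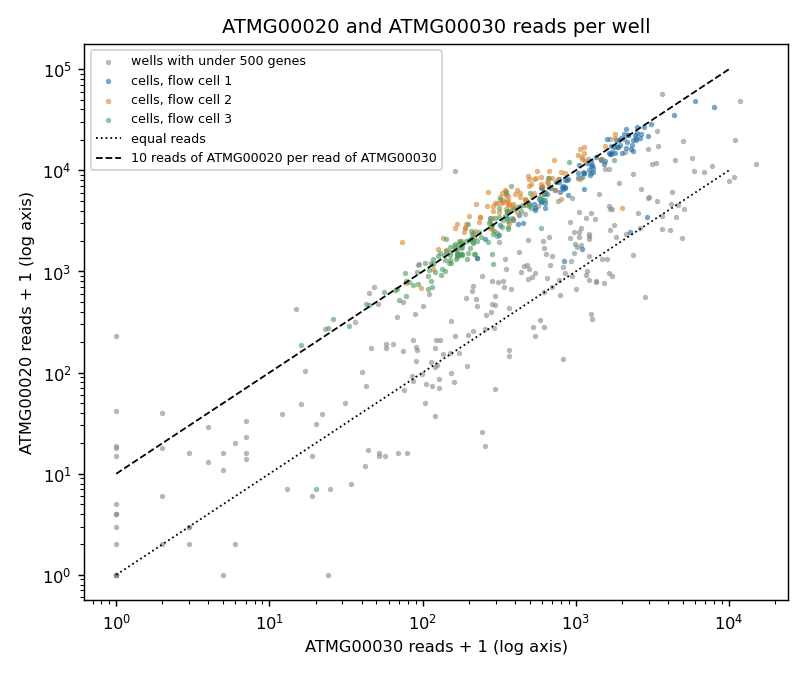
Reads plus 1 of ATMG00030 and of ATMG00020 per well (both log axes), for cells by flow cell and for wells with under 500 genes; the lines mark equal reads and 10 ATMG00020 reads per ATMG00030 read. Cells lie along the upper line, with a median ratio of 9.90, and the other wells lie lower, with a median of 1.76.

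Cells with few genes had larger mitochondrial shares. Within each flow cell the lower 1 in 3 of cells by genes with a read was set against the upper 1 in 3, 107 cells each, with medians of 2369 and 6140 genes and of 177841 and 327658 reads. ATMG00020 made a median of 2.77% of reads in the lower and 1.37% in the upper cells, and the chloroplast-encoded rows 0.662% and 0.346%. From summed reads, in CPM (counts scaled to the same total of reads in both groups), ATMG00020 was at 31821 in the lower and 15784 in the upper cells, a log2 ratio of 1.01, with 1.10, 1.16 and 1.10 on the 3 flow cells. ATMG00030 had a log2 ratio of 1.21 (1.37, 1.52 and 1.09), ATMG01390 0.83 (0.96, 1.09 and 0.83) and ATMG01360 1.05 (1.35, 0.69 and 1.28). These 4 rows were higher in the lower cells on each flow cell.

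A gene counted as measured with 10 or more reads in total and a read in 5 or more cells of the comparison, which 83 of the 152 rows passed. Of these, 23 were 2-fold or more higher in the cells with few genes and 6 were 2-fold or more lower. Over all 17946 measured genes 16% were higher and 34.7% lower. The groups were chosen by genes with a read, so a lean of most genes to the lower side is built into that choice. All measured genes are thus not a neutral reference here, for these rows or for the nuclear lists below. On all 3 flow cells 28 rows were higher and 3 lower, against 8.54% and 31.3% of all measured genes. The median log2 ratio was 0.44 for the 83 rows and -0.42 for all measured genes. Of the 20 rows read in at least 50% of cells, all had a ratio above 0 (0.03 to 1.44), with ATMG01170 the highest and 5 past 2-fold. ATMG00060, at 1.04 in the sum, was at 1.86, -0.28 and -0.43 on the 3 flow cells, so its direction rested on flow cell 1.

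The size of these ratios depended on the cells with the largest mitochondrial shares. Without cells in which mitochondrion-encoded rows made 10% or more of the reads, 87 of 107 lower cells and all 107 upper cells were left, so this choice of cells could only lower the mitochondrial share of the lower cells. ATMG00020 then stood at 0.62, ATMG00030 at 0.56, ATMG01360 at 0.43 and ATMG01390 at 0.32. The median of the 83 rows was then -0.052, with 11 rows (13.3%) past 2-fold in each direction. All measured genes had a median of -0.46, with 15.3% higher and 36.3% lower. The share of higher rows was thus not above that of all measured genes in these cells. Leaving out, for each row, the cell with most of its reads gave 9 higher rows in place of 23. Of the 99 chloroplast-encoded rows measured, 75 were 2-fold or more higher in the cells with few genes and 0 lower, with a median of 1.36. Nuclear genes of the respiratory chain lay on the other side, with a median of -0.84 for complex I (0 of 13 higher, 5 lower) and -1.04 for ATP synthase (0 of 9 higher, 5 lower). Complex III, complex IV with cytochrome c, and complex II had -0.58, -0.62 and -0.34, with 2 of 9, 1 of 6 and 2 of 5 lower. All measured genes lay on that side too, at -0.42 with 34.7% lower, and the 38.5% of complex I is close to that share.

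Cells with transcripts of mitosis had somewhat smaller mitochondrial shares. A total of 39 cells had reads of 2 or more of 12 genes of the G2 and M phases of the cell cycle, such as B-type cyclins, and were set against the other 283. ATMG00020 made a median of 1.39% of reads in the G2 and M cells and 1.61% in the others. The medians of the other 149 rows summed were 0.0967% and 0.103%. From summed reads, in which cells with large shares weigh more, ATMG00020 was at 15024 CPM in the G2 and M cells and 21096 in the others. The log2 ratio was -0.49, with -0.50, -0.41 and -0.45 on the 3 flow cells. ATMG00030 had -0.57 (-0.52, -0.61 and -0.37) and ATMG01390 -0.49 (-0.42, -0.60 and -0.32). The 3 rows were lower in the G2 and M cells on each flow cell, by less than 2-fold. ATMG00670 was the one row of the 20 most widely read that passed 2-fold, at -1.05 (-1.08, -1.01 and -1.12).

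Of 86 rows measured in this comparison, 4 were 2-fold or more higher and 21 lower, where 15.8% and 25.1% of 19362 measured genes were, so the lower count is close to the background share. On all 3 flow cells 26 rows were lower and 4 higher, against 17.1% and 13% of all measured genes. The median log2 ratio was -0.50 for the rows and -0.11 for all measured genes. Nuclear genes of complex I and of ATP synthase had medians of 0.00 and 0.19. AT2G07698 was at 0.08.

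The G2 and M cells also had more genes with a read, with a median of 5518 against 3852, and more reads, 357901 against 243257. Among cells of the upper 1 in 3 by genes, 23 G2 and M cells had a median of 1.28% of reads from ATMG00020 and 84 other cells 1.39%, and the log2 ratio of the sums was -0.35. It was -0.17 in the middle 1 in 3 (10 against 98 cells) and -0.46 in the lower (6 against 101). Without cells that had 10% or more of their reads from mitochondrion-encoded rows (no G2 and M cell was among these) it was -0.31, and the median of the 86 rows was -0.30. For ATMG00020 the sign was the same in all of these subsets, and the ratio was small beside its spread among cells. The 20 rows read in at least 50% of cells had medians of -0.40, -0.19 and -0.46 in the lower, middle and upper 1 in 3. Over all 86 rows, many with few reads, the median in the lower 1 in 3 was 0.068.

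**Figure D5:**
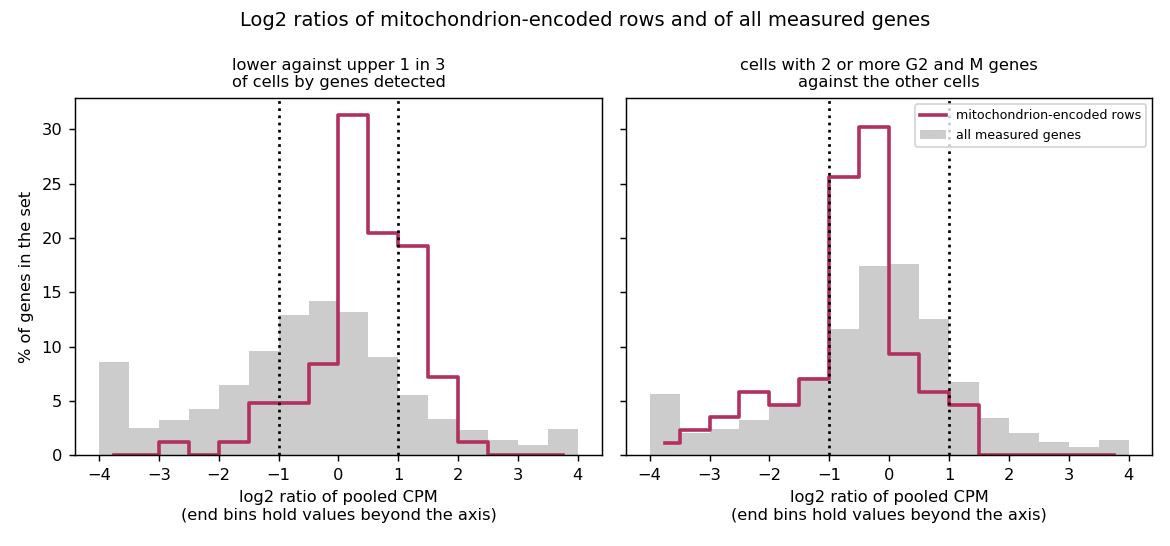
Distribution of log2 ratios of CPM in bins for mitochondrion-encoded rows (line) and all measured genes (bars), for cells with few against many genes (left) and for G2 and M cells against the others (right); dotted lines mark 2-fold. The rows lie to the right of all genes on the left side, with medians of 0.44 and -0.42, and to the left of them on the right side, with medians of -0.50 and -0.11.

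Mitochondrial and chloroplast reads, summed over cells, were compared without ATMG00020 and without 8 chloroplast identifiers set aside as rRNA rows, which had 205 reads. ATMG01390 and ATMG01380, the other mitochondrial rows listed as rRNA, are not named by the reference and stay in. Removal of rRNA rows was therefore less complete on the mitochondrial side, and a ratio without only these rows was not computed. The 151 rows other than ATMG00020 had 570182 reads and the remaining chloroplast-encoded rows 543867, a ratio of 1.05. It was 1.65, 0.572 and 0.845 on flow cells 1, 2 and 3, so which organelle gave more reads differed between flow cells. The ratio rests on ATMG00030 and ATMG01390, and without these it was 0.269.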

How the data were processed

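The deposited table holds the authors' raw counts of reads per gene in 573 wells, as whole numbers with unequal totals, and a text in which raw file names give the flow cell and plate of each well. Per the submitters' processing notes the genome build was TAIR10, with no coordinates in the files. Aligner, counting rule, strand setting and the treatment of reads with several matches are not stated in the labels or headers. Nor do these mention molecular identifiers, so copies made by PCR count as reads. Overlapping genes and close copies cannot be told apart with certainty.

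Python 3.11.15 with pandas 2.3.3, numpy 2.4.6 and scipy 1.17.1 was used. Wells with 500 or more genes with a read were kept as cells. Doublets were not called, as a column stands for a plate well. Shares of cells have exact 95% binomial (Clopper-Pearson) intervals. Reads were summed over cells, divided by total reads and compared as a log2 ratio of CPM, with a sum of 0 reads set at a floor of 3. The script for ratios was checked on simulated counts. With no well tied to a replicate, no model was fitted and no p-value computed. Chromosome 2 loci were aligned to the mitochondrial genome with blastn 2.17.0.

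The members and gene lists were chosen with earlier results of these data known. Rows named with values were described rows with reads in 10 or more cells and the 8 other rows with the highest share of cells. Further rows were named after their values were seen: the other rows of the wide group and those that stand out in a comparison or among the chromosome 2 pairs. The alternatives tried covered the well and read limits, scaling, thinning, flow cells and single cells.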

Additional observations from a re-analysis of the deposited data

Results flagged for a closer look

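Reads of 3 mitochondrion-encoded rows appeared in data outside the comparisons between cells, namely in the 251 wells with under 500 genes. The median share of a well's reads there was 16.9% for ATMG00020, 9.33% for ATMG00030 and 3.04% for ATMG01390. In cells the medians were 1.58%, 0.160% and 0.137%. The series has no wells labelled as empty, so no control level could be set beside these values.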

How the results depend on the processing

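Of 160 recomputed summary values, 100 counted as unchanged. For shares, levels and the chloroplast ratio this meant within the interval, and for counts within 1.5 times of the value reported. A median log2 ratio counted as unchanged if it kept its sign and its side of 2-fold, so it could still change in size. The median share of reads from rows other than ATMG00020 (0.407%) was 0.907% with no filter on wells, 0.610%, 0.256% and 0.347% on flow cells 1, 2 and 3 alone, and 0.322% to 0.470% leaving out 1 flow cell. It was 0.274% without ATMG01390 and ATMG01380, and 0.0994% without ATMG01390 and ATMG00030. ATMG00020 (1.58%) was at 2.76% with no filter on wells, 2.34%, 1.21% and 1.32% on single flow cells, and 1.29% to 1.81% leaving out 1. The share of wells with a read of any other row was 98.6% with no filter, against 100%. The median share of cells over the 18 rows named by rule (43.8%) was 26.9% with no filter, 28.7% at 3 reads, 51.5% on flow cell 1 and 36.0% in thinned cells. Their median level (14.3 CPM) was 17.4 as a mean of cell values, 13.3 without the top cell, 19.7, 9.11 and 12.4 on single flow cells, 10.0 to 17.7 leaving out 1, and 51.3 with chromosome 2 partners added.

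For cells with few genes, the 23 higher rows became 45 by the mean of cell CPM, 35 with no filter on genes, 9 without the top cell and 11 in cells with under 10% of reads from these rows. The 6 lower rows became 3 by the trimmed mean of M values (TMM), 3 by the median of ratios, 3 by the mean of cell CPM, 14 and 15 on flow cells 2 and 3, 5 to 11 leaving out 1, and 11 in cells with under 10%. Their median log2 ratio (0.44) was 1.19 by the mean of cell CPM and -0.052 in cells with under 10%. ATMG00060 (1.04) turned to -0.28 and -0.43 on flow cells 2 and 3, to -0.055 in cells with under 10%, and to -0.32 leaving out flow cell 1. For G2 and M cells, the 4 higher rows became 2 by TMM and by the mean of cell CPM, 32 with no filter on genes, 11 and 23 on flow cells 2 and 3, and 4 to 12 leaving out 1. The 21 lower rows became 43 by the mean of cell CPM, and their median (-0.50) was 0.068 within the lower 1 in 3 by genes (6 G2 and M cells), where the 20 most widely read rows had -0.40. The ratio to chloroplast reads (1.05) was 1.06 in cells with 1000 or more genes, and 1.65, 0.572 and 0.845 on single flow cells. It was 0.645 to 1.42 leaving out 1, 1.06 by the mean of cell shares and 1.03 without the top cell. It was 5.02 with ATMG00020 and the chloroplast rRNA rows left in, and 0.269 without ATMG01390 and ATMG00030.

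The cause of these shifts was not tested. The subsets with under 10% of reads from these rows, by gene number and without ATMG00030 were chosen after seeing the data. The planned omission of the other rRNA and the transfer RNA rows was run in part: ATMG01390 and ATMG01380 were left out, and transfer RNA rows were not, since their identifiers could not be assigned. No paired analysis was possible because no well carries a replicate number. Rows with few reads are limited by depth, as are shares on flow cell 3.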
